A study of Rattus norvegicus with 56 samples.

Results

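Genes of microglia were followed in cultured hippocampal neurons of the rat. The 9 genes are Cx3cr1, Aif1, Csf1r, P2ry12, Tmem119, Cd68, Itgam, Trem2 and Tyrobp, out of 16581 genes that could be named on the array. They were chosen by name, found through the RefSeq accession of each probe, and represented by the probe with the highest mean signal. Each of the 9 had a probe, and all 9 passed the filter used for the tests, which asked for a signal well above the local background on at least 3 arrays.

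Primary cultures were prepared from hippocampi of Sprague-Dawley rat embryos at embryonic day 18, and no group carried a genetic change. Dishes were placed on a coil for repetitive transcranial magnetic stimulation (rTMS), which passes brief magnetic pulses through the cells, at 15% of the maximum output of the machine. The arms were 1 Hz stimulation (evenly spaced pulses), intermittent theta burst stimulation (iTBS, pulses in short bursts) and sham, in which the coil stood away from the dish. RNA was taken 0, 2, 8, 24 or 48 h later. Cultures left untreated were sampled at 0 h alone. The cultures were made as neuron cultures and hold whatever other cells of the embryonic hippocampus remained after plating, so the RNA of every dish is a mixture.

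Microglia are the resident macrophages of the brain. They arise from yolk sac progenitors, depend on signalling through the receptor Csf1r, and survey the tissue through surface receptors such as Cx3cr1, which binds the neuronal ligand Cx3cl1, and P2ry12, which senses nucleotides. Trem2 recognises lipids and lipoproteins and signals through the adaptor Tyrobp, Itgam is the alpha chain of complement receptor 3, Aif1 (Iba1) binds actin and calcium, Cd68 is a lysosomal glycoprotein, and Tmem119 is a membrane protein used to mark microglia that is also known from bone-forming cells.

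One 1-colour array was hybridized per sample. Replicate 2 of 1 Hz at 2 h was left out, because its scan failed the grid check and only 25.3% of its spots were well above background. The other 55 arrays form 16 groups of 2 to 4 arrays, and on them 66.1% to 81.8% of spots were well above background. Levels are scaled log2 signal: each array averages 0 over its probes, and a difference of 1 corresponds to about a doubling. Levels of different probes cannot be set against each other. The sample descriptions number the samples in runs that each pass through the arms and times, and the runs are called series A (11 arrays), B (12), C (17) and D (15) here. The labels do not say whether a series is a separate preparation, nor whether replicates are separate cultures, so p-values measure the spread between these samples. The arrays lay on 7 slides: A on slides 1 and 2, B on 3 and 4, C on 5 to 7, and D on all 7. Differences among A, B and C therefore lie between slides, while D can be compared with another series on the same slide.

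Whether the cultures held microglial RNA was checked first. Tyrobp, Cd68, Itgam and Cx3cr1 were well above background on every array with a value, P2ry12 on 54 of 55, Aif1 and Trem2 on 32 of 55 each, Tmem119 on 21 and Csf1r on 7. Of 30 other microglia genes in a fixed list, 27 had a probe and 23 passed the filter. The complement genes C1qa, C1qb and C1qc were well above background on 25, 55 and 18 arrays, and the lysosomal protease gene Ctss on 22. The pan-leukocyte gene Ptprc and Cybb, a subunit of the phagocyte oxidase, were well above background on 1 array each. Of 11 genes of border macrophages and monocytes in another fixed list, 10 had a probe and 7 passed the filter, Cd14, Pf4, Plac8 and S100a9 among them. The markers of border macrophages Mrc1 and Cd163 and the monocyte receptor gene Ccr2, of the same list, were well above background on none of the 55 arrays. Signals of probes for several microglia genes were thus present, and those of others, Csf1r among them, were mostly at background. A second Itgam probe, for the reference transcript, was well above background on 1 of 55 arrays. The probes used for Cx3cr1, Itgam and P2ry12 had median Pearson correlations of −0.33, −0.26 and −0.35 with the 23 other microglia genes. Whether the signals of those probes, or of the probes of the other genes, come from microglia was not tested.

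**Figure D1:**
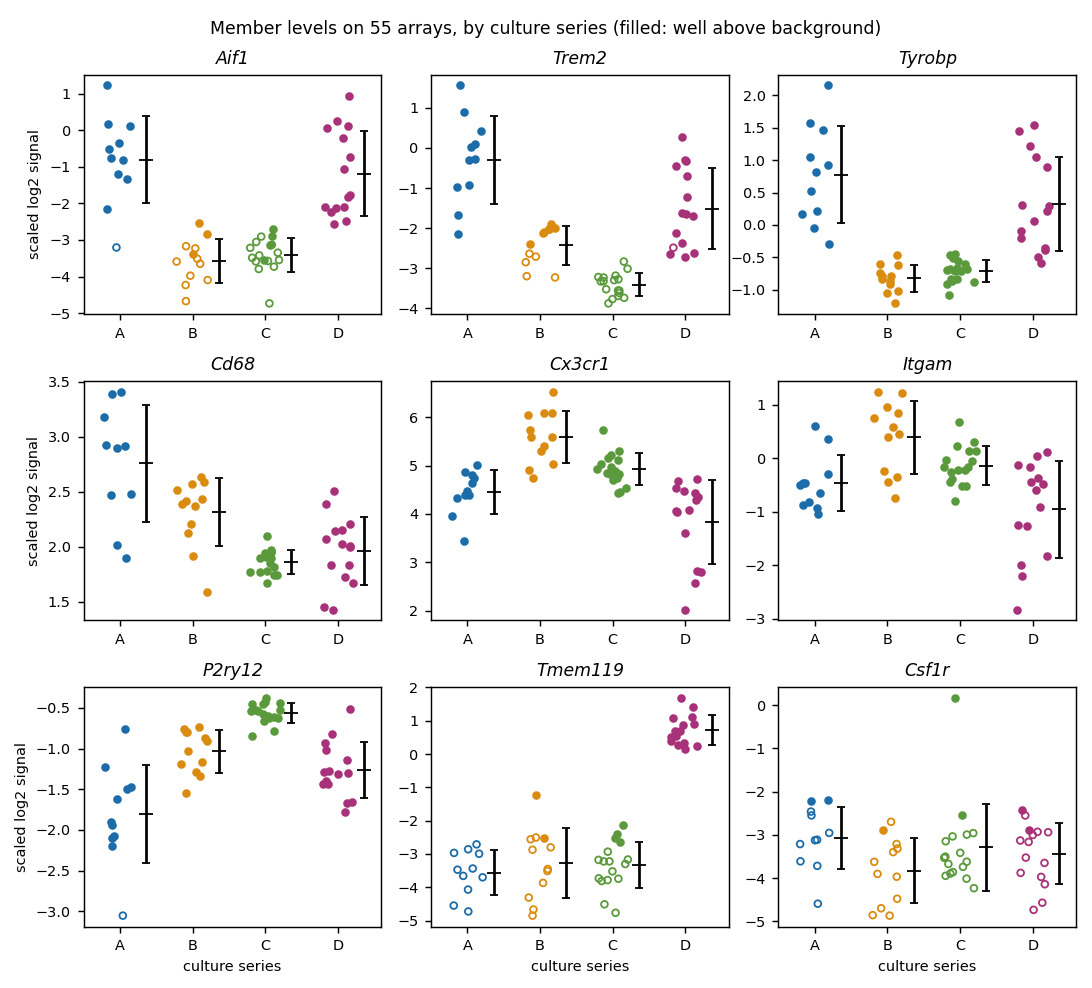
Scaled log2 signal (y axis) of each of the 9 genes on 55 arrays, by series (x axis); filled points were well above background, open points were not, and the black bars give mean and SD. Aif1, Trem2 and Tyrobp stand higher in A and D than in B and C, Tmem119 stands apart in D (0.16 to 1.69), and Cx3cr1 and Itgam are highest on average in B.

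The largest differences lay between the series. Tested with group (arm and time) in the model, 8 of the 9 genes passed for series at a limma adjusted p under 0.05, all but Csf1r, beside 75.3% of all 36040 probes tested. A share of 8 in 9 is near that background, so what follows describes which way each gene went. With RNA from whole dishes, fewer microglia and less of a transcript per cell cannot be told apart.

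Trem2, Tyrobp and Aif1, the lipid receptor with its adaptor and the actin-binding protein, were higher on average in A and D than in B and C. In Tyrobp the signal ran from −0.30 to 2.15 in A (median 0.82), from −1.21 to −0.46 in B (median −0.81), from −1.07 to −0.45 in C (median −0.69) and from −0.59 to 1.54 in D (median 0.21). A lay wholly above B and C, while D overlapped with each of the other series. Fitted with group in the model, Tyrobp was lower in B than in A by 1.49 on the log2 scale, a difference of −1.49 ± 0.25 (SE; limma adjusted p 1.5e-05), and lower in C than in A (−1.41 ± 0.22, adjusted p 2.05e-06). The difference of D from A, −0.33 ± 0.23, did not pass (adjusted p 0.268).

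Aif1 ran from −3.21 to 1.23 in A (median −0.77) and from −2.55 to 0.93 in D (median −1.77). In B it ran from −4.67 to −2.54 (median −3.55) and in C from −4.73 to −2.71 (median −3.42). Its signal cleared the background on 10 of 11 arrays of A and on 15 of 15 of D, and on 3 of 12 of B and 4 of 17 of C. The differences from A were −2.64 ± 0.42 in B (adjusted p 9.8e-06) and −2.53 ± 0.38 in C (adjusted p 1.04e-06), and D did not differ from A beyond its error (−0.24 ± 0.40, adjusted p 0.661). The second Aif1 probe was also higher in A and D than in B and C, with mean levels of −1.46 in A, −4.70 in B, −4.87 in C and −2.35 in D.

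Trem2 separated C from B as well. Its signal ran from −2.15 to 1.56 in A (median −0.28), from −3.23 to −1.89 in B (median −2.26), from −3.87 to −2.83 in C (median −3.33) and from −2.72 to 0.28 in D (median −1.66). All 6 differences between series passed, from −3.03 ± 0.31 for C minus A (adjusted p 4.63e-10) to +0.94 ± 0.31 for D minus B (adjusted p 0.00927). Its signal cleared the background on all 11 arrays of A, on 14 of 15 of D and 7 of 12 of B, but on none of the 17 of C. Against the lowest signal counted as well above background on the arrays of C, Trem2 was at least 6.99-fold higher in A, at least 3.02-fold higher in D and at least 1.60-fold higher in B. With background correction by normexp the differences of Trem2 between B and C (C minus B adjusted p 0.328) and between B and D (D minus B adjusted p 0.0502) did not pass. That correction, which adds an offset to every signal, also made the differences of dim genes smaller, as in C minus A, where Trem2 was −0.99, Aif1 −0.76 and Tyrobp −0.86.

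Cd68, the lysosomal gene, followed this set in part. It ran from 1.90 to 3.41 in A (median 2.90, 10 arrays with a value), from 1.59 to 2.64 in B (median 2.40), from 1.67 to 2.10 in C (median 1.90) and from 1.43 to 2.51 in D (median 2.01). The series overlapped, and D lay with C here rather than with A. Cd68 was lower than in A by −0.46 ± 0.15 in B (adjusted p 0.0174), −0.91 ± 0.13 in C (adjusted p 7.22e-07) and −0.78 ± 0.14 in D (adjusted p 1.79e-05), and D minus C did not pass (+0.13 ± 0.11, adjusted p 0.342). The difference between B and A lost its call under 75th percentile scaling (adjusted p 0.1), quantile normalization (adjusted p 0.064) and normexp (adjusted p 0.0583). With the slide as a block, D minus C passed (+0.48, limma adjusted p 0.00217). On slide 7 Cd68 was higher in D than in C by 0.53 without overlap, and on slides 5 and 6 the differences were +0.09 and −0.15 with overlap.

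Cx3cr1, the fractalkine receptor, ran the other way. Its signal ran from 3.44 to 5.01 in A (median 4.47), from 4.75 to 6.53 in B (median 5.59), from 4.43 to 5.73 in C (median 4.90) and from 2.03 to 4.72 in D (median 4.09). D lay wholly below B, the neighbours A and C overlapped, and C minus A did not pass (+0.48 ± 0.23, adjusted p 0.0871). It was higher in B than in A by 1.12 ± 0.26 (adjusted p 0.00108), and D was lower than B by −1.74 ± 0.23 (adjusted p 2.83e-08) and lower than C by −1.11 ± 0.21 (adjusted p 2.08e-05).

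Itgam had the same order as Cx3cr1. It ran from −1.04 to 0.60 in A (median −0.51), from −0.73 to 1.25 in B (median 0.52), from −0.81 to 0.68 in C (median −0.17) and from −2.82 to 0.12 in D (median −0.60). All 4 series overlapped, and 3 of the 6 differences passed: B minus A (+0.88 ± 0.29, adjusted p 0.0177), D minus B (−1.35 ± 0.25, adjusted p 1.91e-05) and D minus C (−0.84 ± 0.23, adjusted p 0.0021). The 2 probes of Itgam disagree. The one used here carries a predicted transcript accession and was well above background on 55 of 55 arrays, while the probe for the reference transcript was well above background on 1 of 55 and was not tested.

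P2ry12, the purine receptor, was lowest in A and highest in C. It ran from −3.06 to −0.76 in A (median −1.90), from −1.54 to −0.73 in B (median −0.97), from −0.84 to −0.37 in C (median −0.54) and from −1.78 to −0.51 in D (median −1.29). All 6 differences passed, the widest being C minus A (+1.20 ± 0.13, adjusted p 1.83e-09), but D minus B (−0.31 ± 0.13, adjusted p 0.0434) and C minus B (+0.39 ± 0.13, adjusted p 0.0168) were smaller than the range within B, and the latter lost its call under 75th percentile scaling (adjusted p 0.338). D minus A (+0.51 ± 0.14) did not pass under quantile normalization (+0.28, adjusted p 0.0877) or normexp (+0.08, adjusted p 0.267), and D minus B did not pass with the deposited z-scores (adjusted p 0.0539).

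Tmem119 separated D from the rest. It ran from 0.16 to 1.69 in D (median 0.69) and was well above background on all 15 arrays, and it ran from −4.73 to −2.71 in A (median −3.47), from −4.85 to −1.22 in B (median −3.16) and from −4.77 to −2.14 in C (median −3.22), with 0, 2 and 4 arrays well above background. D did not overlap with any other series. The fitted differences were +4.49 ± 0.29 from A (adjusted p 1.1e-15), +3.96 ± 0.27 from B (adjusted p 3.24e-15) and +4.10 ± 0.25 from C (adjusted p 8.13e-17), and the bound against A was at least 12.7-fold. Over 9 other settings D minus A lay between 1.56 and 5.08, D minus B between 1.51 and 4.54 and D minus C between 1.53 and 4.70, with the lowest values under normexp. On a linear scale the median processed signal was 228 intensity units in D and 7.85, 9.78 and 8.92 in A, B and C. None of the 3 differences among A, B and C passed.

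Csf1r, the receptor for Csf1 and Il34, was well above background on 2 arrays of A, 1 of B, 2 of C and 2 of D, and none of its 6 differences passed. Its levels ran from −4.87 to −2.20 on all arrays but 1, the array of 1 Hz at 24 h replicate 2, where it was 0.17.

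Counted by comparison, limma called 7 of the 9 genes in B minus A (3 higher, 4 lower) beside 30.4% of all probes, 5 in C minus A (1 higher, 4 lower; 42.9% of all probes), 5 in D minus A (2 higher, 3 lower; 41.6%), 4 in C minus B (1 higher, 3 lower; 32.7%), 8 in D minus B (4 higher, 4 lower; 52.9%) and 7 in D minus C (4 higher, 3 lower; 52.4%). The genes thus did not go one way in any comparison. Their median difference was −0.46 in B minus A, −0.14 in C minus A, −0.33 in D minus A, −0.14 in C minus B, 0.40 in D minus B and 0.13 in D minus C, where the medians of all probes lay between −0.04 and 0.04.

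With the slide as a block, 0 of the 7 calls in B minus A held, 5 of 5 in C minus A, 3 of 5 in D minus A, 2 of 4 in C minus B, 4 of 8 in D minus B and 7 of 7 in D minus C. Of the called differences, Trem2 in D minus B (−0.07, adjusted p 0.917) and Cx3cr1 in C minus B (+0.09, adjusted p 0.907) turned their sign in that fit and did not pass. Cd68 in D minus C (+0.48, adjusted p 0.00217) and Aif1 in C minus B (−1.91, adjusted p 0.0468) passed in it, though not called without the slide. Series A, B and C share no slide with one another, so each pair of them is linked in that fit only through the arrays of D.

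**Figure D2:**
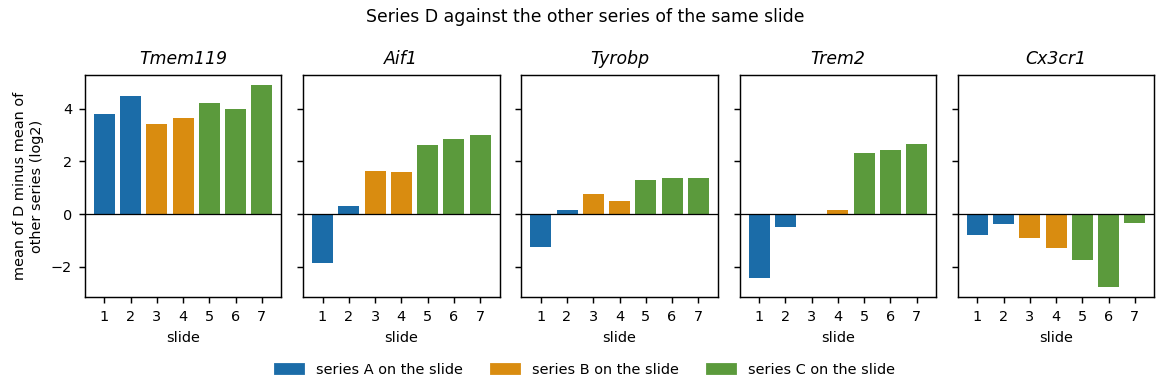
Mean level of the D arrays minus the mean of the other series on the same slide (y axis, log2) for 5 genes on slides 1 to 7 (x axis); bars are coloured by the other series. Tmem119 is higher in D on 7 of 7 slides, and Cx3cr1 is lower in D on 7 of 7. Arrays on a slide are not matched for arm or time.

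On single slides, each with 2 or 3 arrays of D and 4 to 6 arrays with a value of another series, the mean of Tmem119 was higher in D on all 7 slides, by 3.41 to 4.91, and D did not overlap with the other series on any of them. Aif1 was higher in D by 1.61 to 1.62 on the slides of B and by 2.62 to 2.99 on the slides of C. On slide 1, beside A, Aif1 was lower in D by a difference of −1.84, and on slide 2 the difference was +0.29 with overlap. Trem2 behaved likewise beside C (+2.34 to +2.66) and A (−2.44 on slide 1 and −0.47 on slide 2), and differed little beside B (−0.02 and +0.16). Cx3cr1 was lower in D on all 7 slides, by −0.35 to −2.77, without overlap on 4 of them. The arrays compared on a slide were not matched for arm or time. The widest gaps of Cx3cr1 lay on slides 5 and 6 (−1.75 and −2.77), which held the arrays of D at 24 h. On those arrays it was 2.03 to 2.79, against means of 3.80 to 4.37 in D at the other times.

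Sequence upstream of the start site is shown for 3 genes, Trem2 and Cd68 from the set that was high in A and Itgam from the pair that was high in B. RefSeq promoters of assembly GRCr8 were at hand for 5 of the 9 genes. The motif GAGGAA, the core of the purine-rich box bound by the macrophage factor PU.1 (gene Spi1), was searched on both strands in the 250 bases before the start site. It was present for 4 of the 5 genes (not for Cx3cr1) and in 23.3% of all 33469 promoters. For Cx3cr1 all of the 250 bases searched, and for Csf1r 227 of them, lie inside another transcript of the gene. Capitals mark the motif, which reads TTCCTC where it lies on the opposite strand, and bases that belong to another transcript of the gene are left out. Spi1 itself was well above background on 18 arrays and its series effect did not pass (adjusted p 0.888). The Trem2 stretch is chr9:20151798-20152029 (minus strand), the Cd68 stretch chr10:54882442-54882691 (minus strand) and the Itgam stretch chr1:192089342-192089495 (plus strand).
Trem2: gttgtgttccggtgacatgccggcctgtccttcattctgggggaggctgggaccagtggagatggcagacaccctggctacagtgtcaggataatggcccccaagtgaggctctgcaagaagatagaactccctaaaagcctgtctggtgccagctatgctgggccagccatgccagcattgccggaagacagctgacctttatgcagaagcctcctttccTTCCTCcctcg
Cd68: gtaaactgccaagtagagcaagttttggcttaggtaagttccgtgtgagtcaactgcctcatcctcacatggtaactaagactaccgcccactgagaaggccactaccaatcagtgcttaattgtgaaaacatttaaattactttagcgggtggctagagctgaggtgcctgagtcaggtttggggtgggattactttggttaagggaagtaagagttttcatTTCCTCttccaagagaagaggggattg
Itgam: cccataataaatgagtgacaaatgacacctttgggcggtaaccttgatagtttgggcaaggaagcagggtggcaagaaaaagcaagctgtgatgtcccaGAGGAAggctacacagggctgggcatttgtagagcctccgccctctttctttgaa
The motif began 29 bases before the start site in Trem2 and 27 bases before it in Cd68, both on the opposite strand, and 151 bases before it in Itgam, where a second match 39 bases before the start lies among the 96 bases left out. A match is a run of letters and not a measured binding site.

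**Figure D3:**
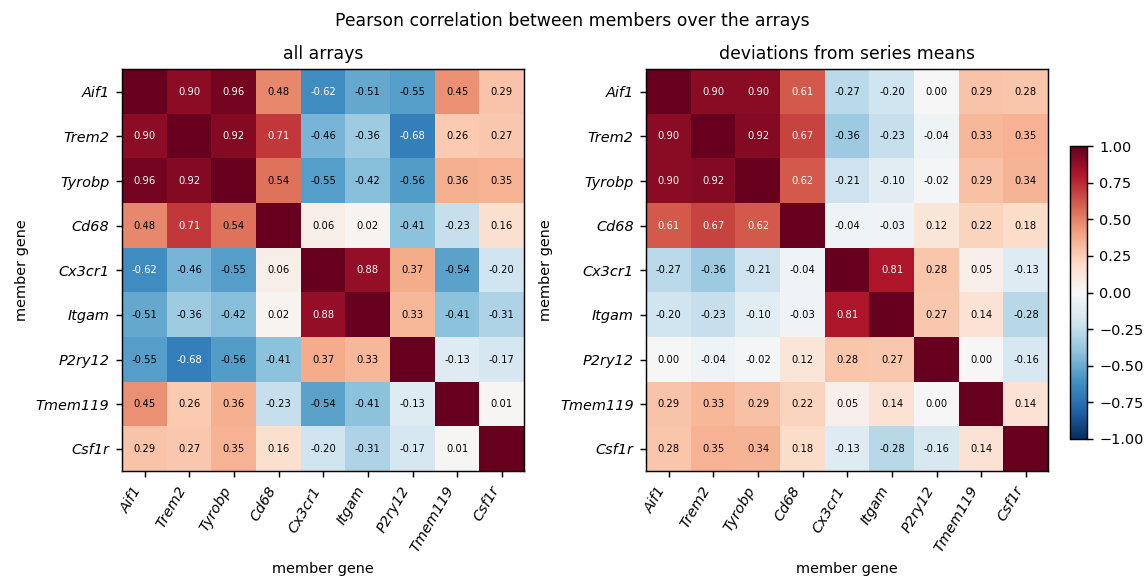
Pearson correlation between the 9 genes over the arrays, for all arrays (left) and for deviations from the series means (right). Aif1, Trem2 and Tyrobp form a block at 0.90 to 0.96, and Cx3cr1 and Itgam form a pair at 0.88, or 0.81 within series.

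Over the 55 arrays, which share series and slides, the genes fell into sets. Aif1, Trem2 and Tyrobp correlated by 0.90 to 0.96, and by 0.90 to 0.92 when the mean of each series was removed, so arrays of the same series that were high in one were high in the others. Cd68 correlated with these by 0.48 to 0.71 (54 arrays), and by 0.61 to 0.67 within series. Cx3cr1 and Itgam correlated by 0.88 with each other (0.81 within series). With Aif1, Trem2 and Tyrobp they correlated by −0.36 to −0.62, and by −0.10 to −0.36 within series. P2ry12 correlated by −0.55 to −0.68 with those 3 genes, and by −0.04 to 0.00 within series. Tmem119 correlated with the other 8 genes by 0.33 at most within series.

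The 8 named genes whose level was most like the mean of the 7 genes well above background on most of the arrays were C1qb (r 0.82), Fcer1g (0.78), Ccl3 (0.78), Gngt2 (0.76), Fcrl2 (0.76), C1qa (0.75), Laptm5 (0.75) and C1qc (0.73), over 55 arrays. That mean followed Trem2 (r 0.86), Tyrobp (0.83), Aif1 (0.79) and Cd68 (0.78), but not Itgam (0.03), Cx3cr1 (−0.07) or P2ry12 (−0.39). The 8 genes are thus those most like the first set and not like all 7. C1qa, C1qb and C1qc encode the chains of the complement starter C1q, Fcer1g an adaptor of Fc receptors and Ccl3 a chemokine. C1qa showed the series order of Aif1, with means of −0.12 in A, −4.40 in B, −4.29 in C and −0.97 in D.

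The nearest genes of single members, looked up after these values were seen, differed by set. C1qa was the named gene outside the 9 nearest to Tyrobp (r 0.95, and 0.91 within series) and to Aif1 (r 0.94, and 0.81 within series), and C1qb the nearest to Trem2 (r 0.91, and 0.78 within series). The probe of Cx3cr1 was followed at a correlation of at least 0.95 by 27 other probes, with 11 gene symbols, and by 21 probes within series. The closest were Vom2r18 (r 0.995, and 0.990 within series), a receptor gene of the vomeronasal organ, and Extl3 (r 0.995, and 0.989 within series), a glycosyltransferase gene. None of the 23 tested genes in the list of other microglia genes correlated with Cx3cr1 by more than 0.47, and their median correlation with it was −0.33, against 0.54 for Tyrobp. Itgam was also nearest to LOC102549375 and Vom2r18 (r 0.88 each). For Itgam that median was −0.26, for P2ry12 −0.35 and for Csf1r 0.12, and none of the 23 genes correlated with any of these 3 by more than 0.5. Cd68 was nearest to Pvr (r 0.83), Epha2, Hlx and Nptx1 (0.79), and P2ry12 to Eppin (0.80), Mfsd4a, Celsr1 and Acsm3 (0.78). None of these is in the list of other microglia genes. For Cd68 the median correlation with the 23 genes was 0.31, and 4 of them correlated with it by more than 0.5. The levels of Cx3cr1, Itgam, Cd68 and P2ry12 are given as those of their probes. Tmem119 was nearest to Cilp, Srpx2, Igf2 and Tnmd (r 0.92 to 0.93), genes known from connective tissue or, for Igf2, from growth signalling, with correlations of 0.13 to 0.36 within series.

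Other lists were fixed by name. Among the other microglia genes, 21 of the 23 tested passed the series test, beside 75.3% of all probes. In B minus A, 1 was higher and 11 lower (median −0.50; 30.4% of all probes called), and in C minus A, 2 were higher and 14 lower (median −0.73; 42.9%). In D minus A, 3 were higher and 5 lower (median −0.30; 41.6%), and in C minus B, 3 were higher and 2 lower (median −0.04; 32.7%). In D minus B, 13 were higher and 2 lower (median 0.61; 52.9%), and in D minus C, 14 were higher and 2 lower (median 0.59; 52.4%). The widest ranges of series means belonged to C1qa (4.28), Ctss (3.46), C1qc (2.53) and Cyba (2.50). The first 3 were highest in A, and Cyba, a subunit of the phagocyte oxidase, was highest in D (means of 3.47 in A, 4.18 in B, 5.55 in C and 5.97 in D).

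Ligands of the member receptors were all tested, and 6 of 7 passed the series test, a share near the 75.3% of all probes. Complement C3, whose fragment iC3b is bound by the receptor that holds Itgam, had means of 0.44 in A, −2.12 in B, −1.86 in C and −0.21 in D. Icam1, an adhesion ligand of leukocyte integrins, was lowest in C (1.16 against 2.62 to 3.24 in the other series). Clu, a lipoprotein that Trem2 binds, had means of 7.23 in A and 8.39 in D, and Il34, a ligand of Csf1r, had means of 2.34, 2.02, 3.11 and 2.87 in A to D. Apoe did not pass (adjusted p 0.0657).

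Of 9 signalling partners of these receptors, 8 were tested and all 8 passed the series test, again beside 75.3% of all probes. Inpp5d, a phosphatase that opposes signals from Tyrobp, had means of −1.11, −2.84, −1.75 and −0.12 in A to D. Blnk, an adaptor, had means of −1.96, −4.08, −4.29 and −3.09, and Lyn, a kinase, was lowest in D (−0.03 against 1.32 to 2.09). Of 14 tested genes of activated microglia, 13 passed, and none of these counts is read as particular to its list. Gpnmb was highest in D (7.18, against 3.93, 2.82 and 2.19 in A, B and C), as were Lgals3 (6.13 against 3.16 to 3.88) and Ctsz (−0.72 against −3.15 to −1.60). Spp1 had means of 0.39, −0.72, −1.95 and 0.67. Of 7 tested genes of border macrophages and monocytes, 6 passed. Pf4 had means of −2.94, −4.62, −4.65 and −3.22, Cd14 0.09, −0.79, −0.61 and 0.81, Plac8 −4.55, −4.84, −3.74 and −3.48, and S100a9 −4.65, −4.07, −4.20 and −3.51, with Pf4 above background on 11 arrays and S100a9 on 3.

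Markers of other cells moved with the series too. The mean level of 12 tested vascular and fibroblast markers ran from 0.93 to 1.41 in D, above A (−0.57 to 0.18), B (−0.85 to −0.17) and C (−0.17 to 0.36). In D minus C, 7 of the 12 were higher and 2 lower, and the collagen genes Col3a1 and Col1a1 had means of 6.01 and 7.12 in D against −1.09 to 2.14 and 1.13 to 4.15 in the other series, while the endothelial genes Cldn5 and Flt1 were well above background on 6 and 4 arrays. The mean of 10 oligodendrocyte lineage markers was lower in D (2.57 to 3.76) than in A (3.80 to 5.23), B (4.90 to 6.08) and C (5.65 to 6.57), and that of 5 cell cycle genes was 2.56 to 3.99 in D against 4.30 to 5.94 in A to C. The mean of 10 astrocyte markers (5.31 to 7.32 on all arrays) overlapped between D and each of the others. That of 12 neuron markers ran from 4.67 to 5.19 in D, above B (4.30 to 4.63) and C (4.16 to 4.45), and overlapped with A (4.28 to 5.35). Of the neuron markers, 7 were higher and 0 lower in D minus B, and 9 were higher and 0 lower in D minus C. The share of spots well above background had a median of 75.3% in D and of 71.7%, 72.5% and 72.1% in A, B and C, and it correlated over the arrays by 0.60 with Tmem119 and by −0.57 with Cx3cr1. The part of these values in the differences of the 9 genes was not tested.

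The time after stimulation was asked about next, with the series in the model. Limma called 0 of the 9 genes for an effect of time, with 0 at an unadjusted p under 0.05, beside 26.9% of all probes. Against 0 h, 0 of the 9 passed at 2 h (0% of all probes), at 8 h (2.34%), at 24 h (13.9%) and at 48 h (26.9%). The lowest unadjusted p belonged to Cd68 at 48 h, with a difference of −0.28 ± 0.14 (p 0.0495, limma adjusted p 0.13). The fit assumes 1 time course for all series, and the series means did not move together. From 0 to 24 h Cx3cr1 went from 5.08 to 6.07 in B and from 3.80 to 2.47 in D. Itgam went from −0.01 to 1.24 in B and from −1.13 to −2.28 in D. From 0 to 48 h Aif1 went from −0.19 to −1.91 in A and from −1.35 to −0.39 in D. These means rest on 2 to 4 arrays, and time courses by series were not tested.

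Cd68 gave another answer in 2 of the other fits. With the slide as a block its time effect passed (adjusted p 0.00286) and it was −0.88 lower at 48 h than at 0 h (adjusted p 0.00401), and without the D series, an alternative chosen after seeing the data, the time effect also passed (adjusted p 0.0201, with −0.54 at 48 h). Leaving out sham at 48 h replicate 3 also brought the 48 h difference of Cd68 past the threshold (−0.40, adjusted p 0.0296). With the slide as a block, Aif1 (−2.01, adjusted p 0.0313) and Trem2 (−1.59, adjusted p 0.0325) were lower at 48 h as well, although their time effect did not pass. Slides and times overlap, since slide 7 held all 3 arrays of D at 48 h. Without the array of iTBS at 24 h replicate 1, the time effect of Itgam passed (adjusted p 0.0424).

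**Figure D4:**
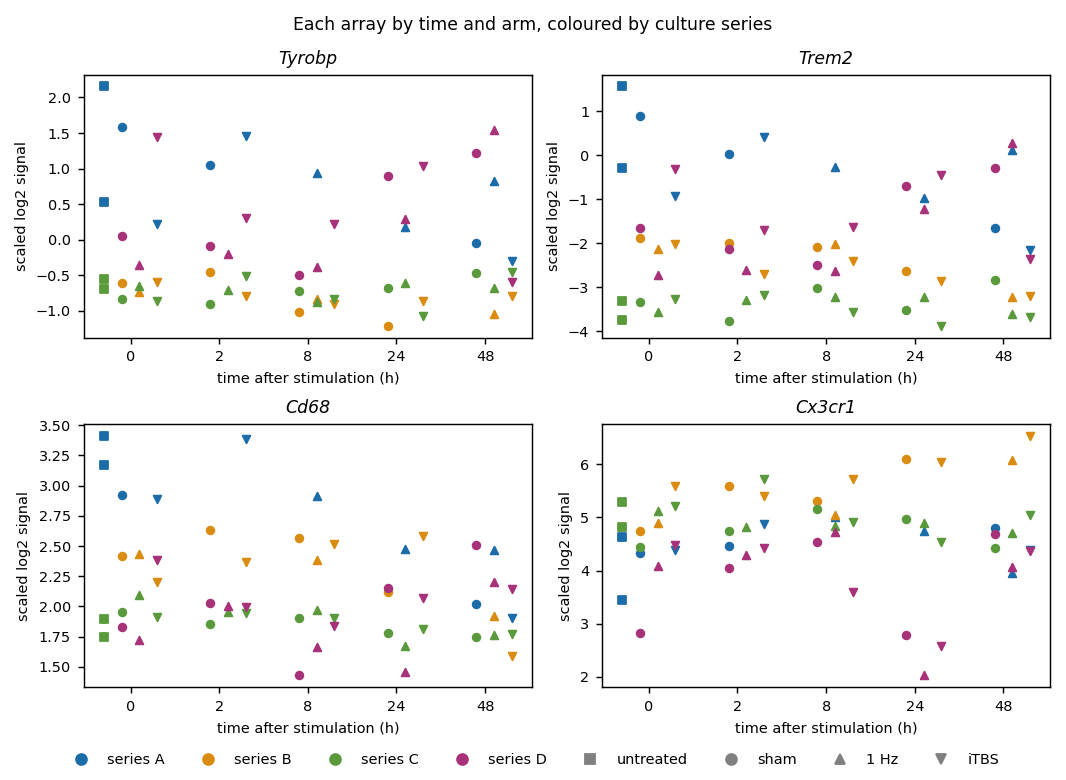
Scaled log2 signal (y axis) of Tyrobp, Trem2, Cd68 and Cx3cr1 on every array by time after stimulation (x axis, h); the marker gives the arm and the colour the series. The arrays of series C stay low in Tyrobp and Trem2 at all times and in all arms.

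Comparisons of stimulated with sham cultures asked whether either protocol changed these genes. In the fit without a series term limma called 0 of 90 differences (10 for each gene), with 1 at an unadjusted p under 0.05, and 0.0139% of all probes passed at least 1 of the 10 comparisons. Series were spread unevenly over the groups, and in most of the genes, though not in Csf1r, much of the spread within groups lay between series. The untreated cultures at 0 h show this: the 2 arrays of A had Tyrobp at 2.15 and 0.52, and the 2 of C at −0.69 and −0.55. In sham at 0 h Tyrobp was 1.58 in A, −0.62 in B, −0.84 in C and 0.05 in D, and in iTBS at 2 h 1.46, −0.79, −0.51 and 0.31. The order of series was the same in both groups except for B and C.

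The residual SD of a gene within groups fell from 2.26 to 0.72 in Tmem119, from 1.69 to 0.97 in Aif1 and from 0.91 to 0.56 in Tyrobp once the series was in the model. It fell less in Itgam, from 0.85 to 0.65, and stayed at 0.88 against 0.87 in Csf1r. With the series as a block, limma still called 0 of the 90. Before adjustment 3 of them lay under 0.05. The lowest adjusted p over these and the other comparisons of arms was 0.539 (Cx3cr1, iTBS minus sham at 0 h, +0.83 ± 0.40, unadjusted p 0.0468).

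Without a series term, the one difference with an unadjusted p under 0.05 was that of P2ry12 for iTBS at 48 h. P2ry12 was −3.06 (A), −1.17 (B), −0.37 (C) and −1.66 (D) after iTBS, and −0.76 (A), −0.62 (C) and −0.51 (D) in sham. The groups overlap through the array of C, and 1 of the 4 iTBS arrays lay above the sham mean. The difference was −0.93 ± 0.44 (p 0.0408, limma adjusted p 1.00). With the series as a block it was −0.996 ± 0.25 (unadjusted p 0.000285, limma adjusted p 0.914), and that of 1 Hz at 48 h was −0.66 ± 0.25 (unadjusted p 0.0114, adjusted p 0.857). Neither passed the correction over all probes.

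The 95% intervals of the other 89 differences included 0. Without a series term the widest reached 3.81 to either side in Tmem119, 2.86 in Aif1, 2.54 in Trem2, 1.01 in P2ry12 and 0.88 in Cd68. With the series as a block they were narrower, reaching at most 1.23 in Tmem119, 1.66 in Aif1, 1.37 in Trem2, 0.96 in Tyrobp, 0.58 in P2ry12 and 0.59 in Cd68, and 87 of the 90 included 0.

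The estimated differences from sham depended on the series term. Without it they ran from −1.35 to 0.78 in Aif1, from −1.30 to 0.49 in Trem2, from −0.77 to 0.46 in Tyrobp, from −0.24 to 0.27 in Cd68 and from −0.73 to 0.83 in Cx3cr1. With the series as a block they ran from −0.92 to 0.67 in Aif1, from −1.09 to 0.18 in Trem2, from −0.54 to 0.24 in Tyrobp, from −0.30 to 0.14 in Cd68 and from −0.36 to 0.83 in Cx3cr1. For 1 Hz at 24 h the difference turned its sign in Aif1 (+0.78 without the series and −0.10 with it) and in Trem2 (+0.47 and −0.20), and neither value passed.

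**Figure D5:**
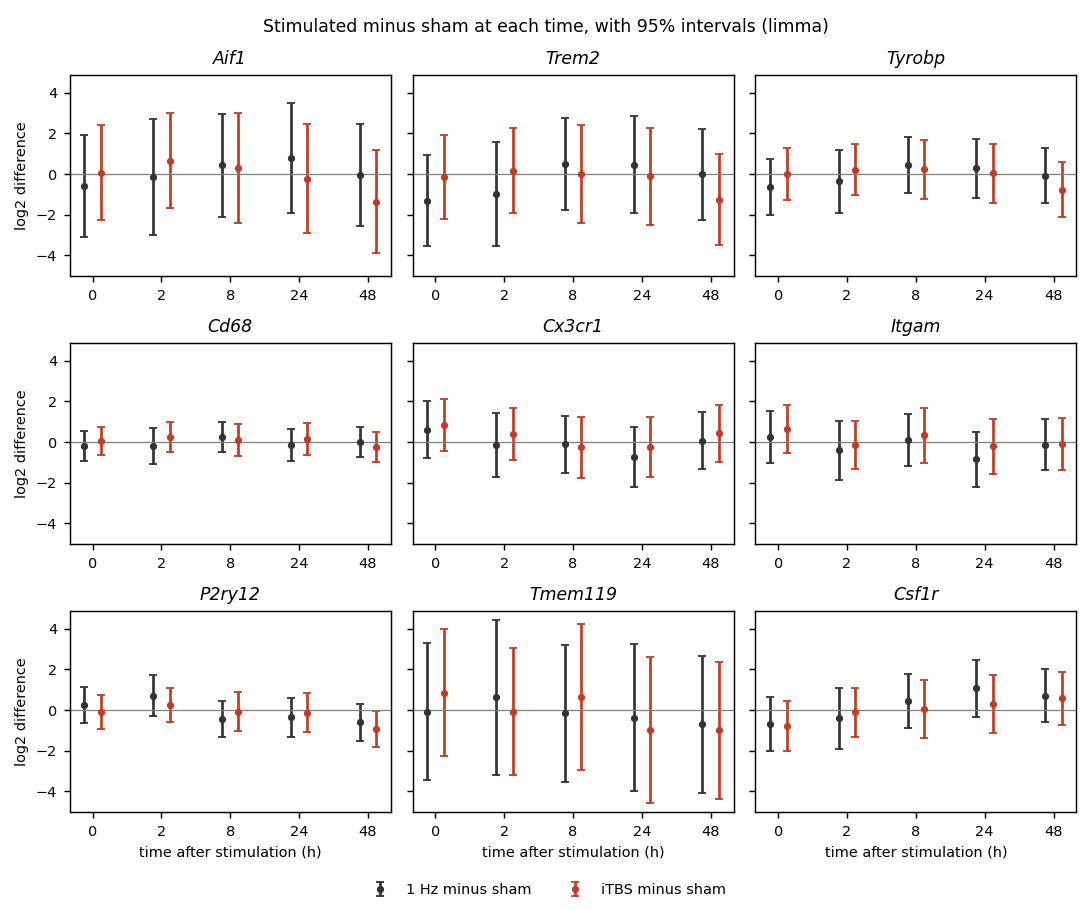
Differences of 1 Hz and of iTBS from sham (y axis, log2) at each time (x axis, h) for the 9 genes, with 95% intervals from limma, in the fit without a series term. All 90 intervals but that of P2ry12 for iTBS at 48 h include 0.

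The means of the 16 groups spanned less than those of the series in all of the genes but Csf1r and Itgam. Tyrobp, for example, ran from −0.75 ± 0.27 (SD, n = 3) in sham at 8 h, a group without an array of A, to 0.36 ± 1.32 (SD, n = 4) in untreated control. Aif1 was lowest after iTBS at 48 h (mean −3.10), Trem2 after 1 Hz at 2 h (−2.95, from C and D only) and Cd68 after iTBS at 48 h (1.85), and all 3 were highest in untreated control (−1.58, −1.45 and 2.56), which holds 2 arrays of A and 2 of C.

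Untreated control against sham at 0 h gave 0 calls among the 9 genes in limma (0 at an unadjusted p under 0.05, 0.00277% of all probes). Direct comparisons of iTBS with 1 Hz gave 0 of 45 (0 unadjusted, with 0.00832% of all probes past at least 1 of the 5). Tests of whether the difference from sham depended on time gave 0 calls for either protocol in the 9 genes (0 of 18 tests, 0 unadjusted, lowest adjusted p 1.00), as for 0% of all probes. These tests used the fit without a series term, whose intervals were wide. They do not show that the differences were the same at all times.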

How the data were processed

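Deposited scanner files of the authors hold the intensity of each spot, background-subtracted and detrended per the file headers with Agilent Feature Extraction 12.0.3.1 (build rn4) and not normalized between arrays. The series matrix of the authors holds a score for each probe, a z-score within an array, and it matched z-scores of the processed signals to within 0.005. Every column belonged to a sample. Spots of a probe were averaged as log2 signal without spots marked as outliers (1 such spot removed Cd68 on sham at 2 h replicate 3, which the fit leaves out), probes missing on more than 2 arrays were dropped, and values were converted to z-scores within each array and put back on a log2 scale with 1 common factor, 4.06 (the median of the SDs within arrays). Of 45598 probes, 46.3% were named through RefSeq accessions (GRCr8), and 36040 were tested, being well above background on at least 3 arrays. Depth of an array is not countable, and the number of arrays limits the precision.

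Fits used limma 3.58.1 (lmFit, eBayes) in R 4.3.3, two-sided, with Benjamini-Hochberg adjustment over all probes tested, called under 0.05. Series and their pairs were tested with group in the model, times with the series in the model, and arms with group alone, following the study. The scripts were tested on simulated data. Groups came from the titles and series from the descriptions. Named genes were all 9, up to 4 of each list by range of series means and the 8 most like the mean of the detected members. A gene that the rule names among the signalling partners is not reported here. Members, lists and tests were chosen with earlier results of these data known. Alternatives were other scalings, background correction, no filter, slide, replicate and series blocks, all 56 arrays, the mean of a gene's probes, and each array left out. The mean spot signal was not used, so background correction by normexp (offset 50) ran on the median signal, chosen after seeing the data like the deposited z-scores and the fit without D.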

Additional observations from a re-analysis of the deposited data

Results flagged for a closer look

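Within groups of 4 arrays, 71 combinations of gene and group were searched for an array far from the other 3, and 2 were found. Chance alone gives about 1 in 20. In 1 Hz at 48 h, Itgam was 0.85 on replicate 2 (series B), with the other 3 arrays between −0.51 and −0.36. In sham at 0 h, Itgam was −1.99 on replicate 4 (series D), with the others between −0.46 and −0.17.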

How the results depend on the processing

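Across 12 other settings, 65 of 71 values kept their side of the threshold and lay within 1.5 times of the reported count. The 36 calls among 54 differences between series fell to 23 with the slide as a block, and were 16 without the D series, where only 3 pairs of series remain. The time effect, 0 of 9, was 1 with the slide as a block and 1 without the D series (Cd68 in both). With all 56 arrays, protocol against sham had 1 call (Cd68, 1 Hz at 2 h, +2.04) and iTBS against 1 Hz had 2 (Cx3cr1 and Cd68 at 2 h), all in the group of the array with the badly placed grid. With the replicate number as a block, 8 genes kept a series effect, 29 differences between series passed, and the time effect and the comparisons of arms stayed at 0. Arrays of other groups with the same replicate number deviated together by a mean correlation of 0.16 (lowest −0.46), against −0.06 for different numbers. For arrays of the same series it was 0.40, against −0.13 for different series. Whether the number marks a pairing was not tested, and the main fits did not use it. Each array left out in turn gave 8 genes with a series effect, 33 to 37 differences between series, 0 to 1 genes with a time effect and 0 calls in the comparisons of arms. The setting planned on the mean spot signal was not run. Signal near background limits Csf1r, Tmem119 outside D, and Aif1 and Trem2 in B and C.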
